A study of Homo sapiens with 24 samples.

Results

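The transcripts of 39 genes of homologous recombination and the Fanconi anemia pathway were followed in U87-T cells that lack DAXX or ATRX and in their WT controls, without and with etoposide. The 39 genes were taken by name from the count table, whose Ensembl identifiers were matched to GENCODE symbols, and all 39 were found among the 57736 genes listed. U87-T is a human glioblastoma line that carries TERT, DAXX and ATRX form a chaperone complex for histone H3.3, and etoposide is a topoisomerase II poison that leaves DNA double strand breaks. RNA was measured in a DAXX series and an ATRX series of 12 libraries each, every series with its own WT libraries. The WT groups are U87-T cells with a control guide or the empty Cas9 vector, the DAXX_KO groups are U87-T cells edited in DAXX, and the ATRX_KO groups are U87-T cells edited in ATRX. Each genotype was sampled under control conditions, which the labels call untreated and the study's methods call DMSO, and with etoposide, whose dose and time the labels of these libraries do not give, with 3 libraries in each of the 8 groups. Every knockout line is a single clone that survived passage and had taken on features of alternative lengthening of telomeres, so the loss of the gene and the history of the clone cannot be told apart.

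Homologous recombination repairs a double strand break by copying the sister chromatid, and it is therefore used in S and G2 phase. The end is first resected to single-stranded DNA by MRE11-RAD50-NBN with CtIP and then by EXO1 or DNA2, the BRCA1 and BRCA2 complexes load the recombinase, the paralogs and motor proteins help it to invade the sister, and helicases and nucleases take the joined molecules apart. The Fanconi pathway recognises crosslinked DNA, its core complex with the E2 enzyme UBE2T attaches ubiquitin to FANCD2 and FANCI, and the modified pair brings in nucleases and the recombination proteins.

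Library totals ranged from 6928950 to 13298557 counts, and levels are given as CPM, the counts relative to the library size that the TMM method of edgeR sets. The upper limit behind a count of 0, which is 3 counts, was worth 0.216 to 0.404 CPM. It covers counting error only, since no molecular identifiers were used. Under control conditions DAXX averaged 33.9 ± 1.24 CPM (SD, n = 3) in the WT libraries and 5.82 ± 1.06 in those of DAXX_KO, and ATRX was at 191.6 ± 4.62 in WT and 80.5 ± 6.07 in ATRX_KO. The genotype tag of these DAXX_KO libraries reads ATRX KO, but ATRX was at 228.4 ± 14.2 in WT and 385.5 ± 25.7 in DAXX_KO, so the titles were followed. VIM, an intermediate filament gene of this line, had group means of 1612 to 5690 CPM, and of 10 marker genes of other cell types CD14 (0.0279 to 0.484) and CDH5 (0.0 to 0.173) were near or under the limit. PTPRC (0.184 to 1.26) and EPCAM (0.140 to 1.72) were above it in some groups, and RBFOX3 (1.26 to 2.4) and MOG (1.94 to 4.01) in all 8. CD68, KRT8, SNAP25 and MBP were between 2.69 and 38.6 CPM. Under control conditions KRT8 (25 in WT and 4.65 in DAXX_KO) was lower and SNAP25 (5.21 and 17.9) higher in DAXX_KO. In ATRX_KO, MBP (19.9 in WT and 5.70), KRT8 (26.2 and 16.9), CD68 (29.4 and 20.4) and EPCAM (0.791 and 0.140) were lower and SNAP25 (2.69 and 5.53) higher. With etoposide KRT8, SNAP25, CD68 and MBP differed in DAXX_KO and KRT8, CD68, EPCAM and MBP in ATRX_KO. Their part in the results was not tested. In bulk RNA, fewer cells in a state and less RNA per cell cannot be told apart.

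Groups were compared with edgeR's quasi-likelihood test across 15247 genes in the DAXX series, 16371 in the ATRX series and 16674 in all 24 libraries, with Benjamini-Hochberg adjustment and an FDR of 5%. All 39 genes passed the filter on low counts in each fit. Differences are log2 fold changes ± SE. The study describes its replicates as biological, without saying for these libraries how the cultures were kept apart. The p-values measure the spread between the 3 libraries within a group, estimated over all groups of a model together. Libraries outside a comparison can thus change its calls.

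The first comparison asked how the genes differed between knockout and WT cells in control conditions. In DAXX_KO 21 of the 39 genes were lower than in WT and 2 were higher, where 26.6% of all genes tested were lower and 26.7% higher (53.4% in all). With libraries scaled by their totals alone, 15 were lower and 8 higher. In the fit with TMM scaling the median log2 difference was −0.34, against 0.02 over all genes. In ATRX_KO 11 of the 39 were lower and 6 higher, close to the background of 21.0% and 20.8% (41.8% in all), and their median was −0.07. The lower genes of DAXX_KO included members of the BRCA complexes, strand exchange and the Fanconi core complex, and in both knockouts the E2 enzyme UBE2T and the nuclease subunit EME1 were among the lowest members.

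**Figure D1:**
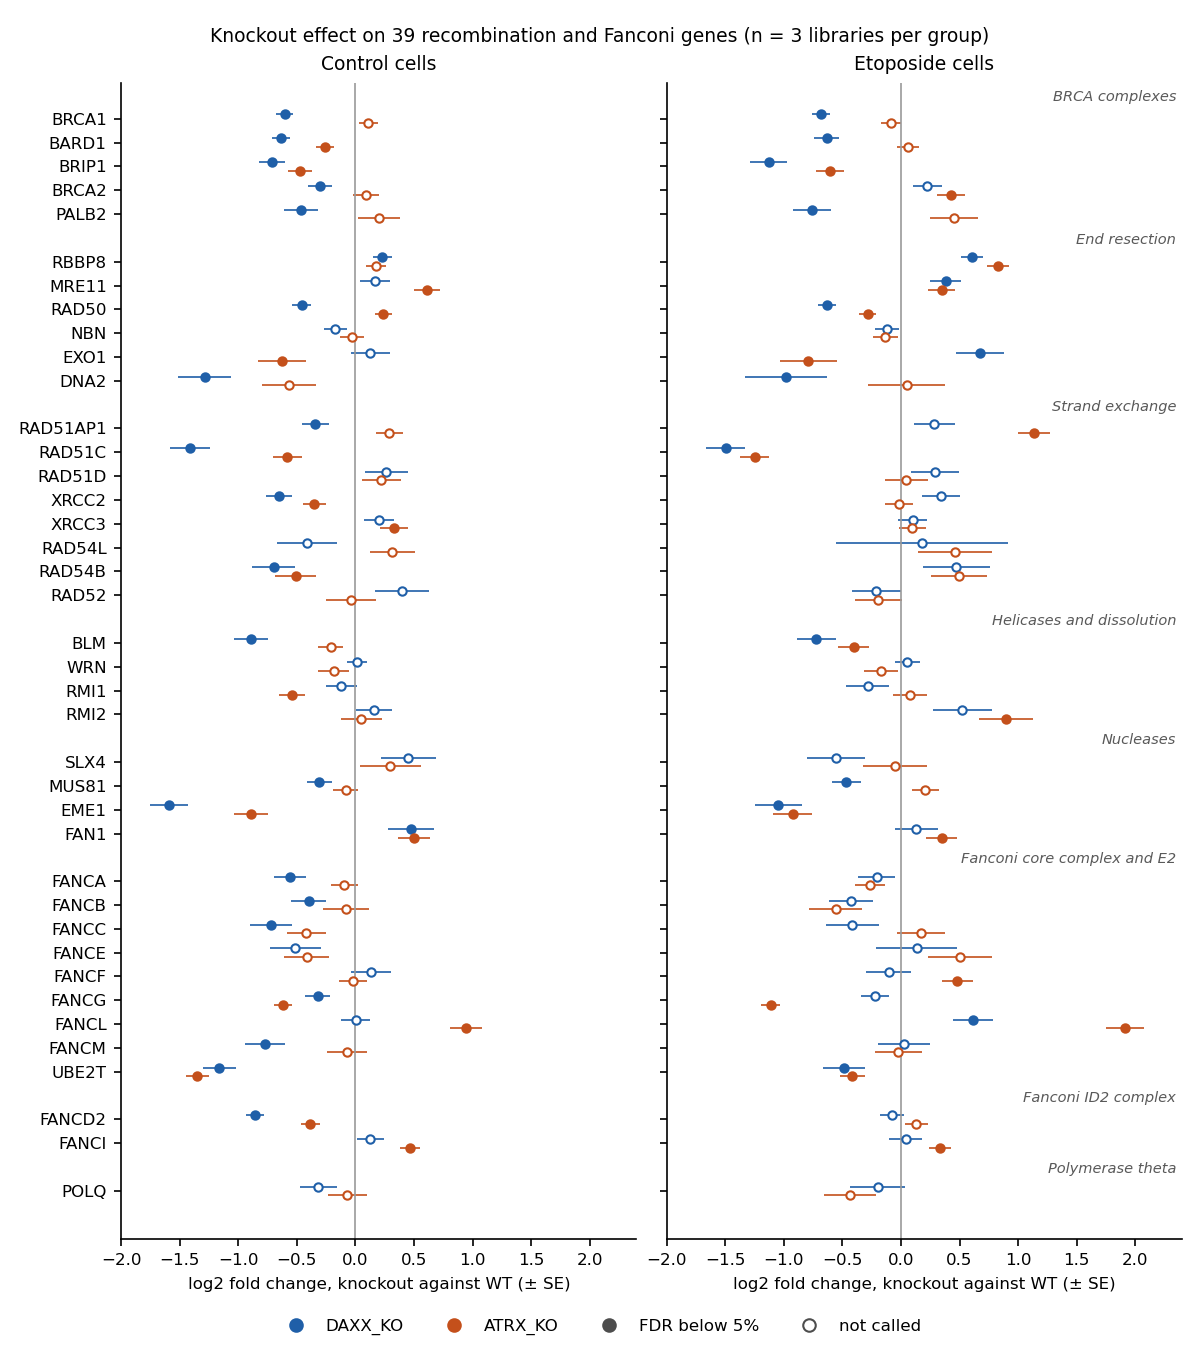
Each member gene is placed by its log2 difference between knockout and WT (x axis) with bars of 1 SE, in control conditions on the left and with etoposide on the right, blue for DAXX_KO and orange for ATRX_KO, grouped by role, with filled points for an FDR below 5% (edgeR). In control conditions most blue points lie below 0, with EME1 at −1.59 and RAD51C at −1.42 farthest down, while the highest orange point is FANCL at 0.94.

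The BRCA proteins organise the loading of the recombinase, and all 5 genes of this group were lower in DAXX_KO (26.6% of all genes), BRCA2 and PALB2 not with libraries scaled by their totals alone. BRCA1, a ubiquitin ligase subunit and scaffold, was at 101, 116 and 113 CPM in the WT libraries and at 72.5, 73.1 and 71.5 in the DAXX_KO libraries. The groups did not overlap, with a difference of −0.60 ± 0.07 (edgeR, adjusted p = 7.92e-07). BARD1, its partner in the ligase, differed by −0.64 ± 0.08 (adjusted p = 8.04e-07). BRIP1, a helicase that binds BRCA1, was at 30.7, 31.7 and 27.5 CPM in WT and 18.6, 16.6 and 19.5 in DAXX_KO, a difference of −0.72 ± 0.11 (adjusted p = 2.01e-05). PALB2, which bridges BRCA1 and BRCA2, was 1.38-fold lower (log2 −0.47), and BRCA2, which delivers the recombinase to single-stranded DNA, was 1.24-fold lower (log2 −0.31). In ATRX_KO BARD1 (−0.26 ± 0.08, adjusted p = 0.0131) and BRIP1 (−0.47 ± 0.10, adjusted p = 0.00147) were lower, BRIP1 at 35.5, 36.3 and 29.1 CPM in WT and 24.3, 24.4 and 24.1 in the knockout. The genes around BRIP1 were lower too, and after their median was taken off BRIP1 was at 0.02 in DAXX_KO (edgeR, adjusted p = 0.92) and −0.03 in ATRX_KO (adjusted p = 0.849), so neither call held. BRCA1 (0.11 ± 0.08), BRCA2 (0.09 ± 0.11) and PALB2 (0.20 ± 0.18) were not called there.

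Of the 6 genes of end resection, 2 were lower and 1 higher in DAXX_KO (26.6% and 26.7% of all genes), and 1 was lower and 2 were higher in ATRX_KO (21.0% and 20.8%). DNA2, a nuclease and helicase of long-range resection, was at 10.8, 9.66 and 9.84 CPM in WT and 3.49, 3.82 and 5.04 in DAXX_KO, a difference of −1.29 ± 0.23 (edgeR, adjusted p = 8.44e-05), with no overlap of the groups. In ATRX_KO DNA2 was at −0.57 and not called. It did pass as lower there without a filter on low counts (edgeR, adjusted p = 0.0128) and in the model of all 24 libraries (adjusted p = 0.0334). RAD50, the ATPase of the MRE11-RAD50-NBN complex, was at 255, 225 and 263 in WT and 199, 179 and 163 in DAXX_KO, and at 220.3, 222 and 211 in WT and 244, 275 and 252 in ATRX_KO. It was the single member called in opposite directions, lower in DAXX_KO (−0.46 ± 0.08, adjusted p = 6.34e-05) and higher in ATRX_KO (0.24 ± 0.07, adjusted p = 0.0149). MRE11, the nuclease of the complex, was higher in ATRX_KO (0.61 ± 0.11, adjusted p = 0.000267). EXO1, the other long-range nuclease, was lower in ATRX_KO (−0.63 ± 0.21, adjusted p = 0.0222) and not called in DAXX_KO (0.13 ± 0.17). RBBP8, which encodes CtIP, was slightly higher in DAXX_KO (0.23 ± 0.08, adjusted p = 0.0221). NBN was not called in either knockout (−0.17 and −0.03).

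Of the 8 strand exchange genes, 4 were lower in DAXX_KO (26.6% of all genes). RAD51C, a subunit of the paralog complexes that support the recombinase, was at 45.4, 43.8 and 54.8 CPM in WT and 21.4, 21.7 and 10.9 in DAXX_KO. Replicate 3 of DAXX_KO was the lowest, all 3 were below WT, and the difference was −1.42 ± 0.17 (edgeR, adjusted p = 9.97e-07). In the ATRX series RAD51C was at 38.1, 40.1 and 41.6 in WT and 24.7, 30.8 and 24.6 in ATRX_KO, a difference of −0.58 ± 0.12 (adjusted p = 0.000997). The WT and ATRX_KO groups did not overlap. With the median of its neighbours taken off, RAD51C in ATRX_KO was at −0.26 and did not pass (adjusted p = 0.103). XRCC2, another paralog, was at 55.6, 52.0 and 51.2 CPM in WT and 37, 35.7 and 28.4 in DAXX_KO, and at 48.7, 51.9 and 45.9 in WT and 36.4, 42.1 and 36.4 in ATRX_KO. It was lower in both knockouts (−0.65 ± 0.11, adjusted p = 7.29e-05, and −0.35 ± 0.10, adjusted p = 0.0081). RAD54B, a relative of the motor protein RAD54, was at 21.4, 19.1 and 23.8 in WT and 10.3, 12.6 and 16.5 in DAXX_KO, and at 19.3, 19.2 and 20.3 in WT and 12, 14.4 and 14.9 in ATRX_KO. It too was lower in both (−0.70 ± 0.18, adjusted p = 0.00293, and −0.51 ± 0.17, adjusted p = 0.0268), and in ATRX_KO it did not pass after the same centring (−0.41, adjusted p = 0.0732). RAD51AP1, which stimulates strand pairing, was lower in DAXX_KO (−0.34 ± 0.12, adjusted p = 0.0175), and in ATRX_KO it was at 0.29 ± 0.11 and not called. XRCC3 was higher in ATRX_KO (0.33 ± 0.12, adjusted p = 0.0345). RAD51D, RAD54L, the motor protein, and RAD52, an annealing factor, were called in neither knockout, with differences of −0.41 to 0.40 in DAXX_KO and −0.03 to 0.32 in ATRX_KO.

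Among the genes for proteins that take joined DNA apart, EME1 and FAN1 were called in both knockouts. EME1, the partner of the MUS81 nuclease, was at 16.6, 17.6 and 17.8 CPM in WT and 6.74, 5.53 and 4.92 in DAXX_KO, and at 18.2, 20.3 and 21.6 in WT and 10.9, 11.3 and 10.2 in ATRX_KO. Neither pair of groups overlapped, and the differences were −1.59 ± 0.16 (edgeR, adjusted p = 1.06e-07) and −0.89 ± 0.15 (adjusted p = 0.00011). EME1 ends over LRRC59 on the other strand, whose values are given with the overlapping genes. MUS81 itself was lower in DAXX_KO (−0.31 ± 0.11, adjusted p = 0.0239) and not called in ATRX_KO (−0.08 ± 0.11). BLM, the helicase that dissolves double junctions, was lower in DAXX_KO (−0.89 ± 0.15, adjusted p = 3.96e-05), and RMI1, its cofactor, was lower in ATRX_KO (−0.54 ± 0.11, adjusted p = 0.00107). FAN1, a nuclease drawn to ubiquitinated FANCD2, was at 9.50, 9.43 and 9.47 CPM in WT and 10.7, 13.8 and 14.9 in DAXX_KO, and at 11.5, 10.2 and 11.6 in WT and 15.8, 14.3 and 16.8 in ATRX_KO. It was higher in both knockouts (0.47 ± 0.19, adjusted p = 0.0468, and 0.50 ± 0.14, adjusted p = 0.00779). FAN1 ends over MTMR10 on the other strand, whose values are given with the overlapping genes. WRN, the helicase of Werner syndrome, RMI2, SLX4, a scaffold for nucleases, and POLQ, the polymerase of theta-mediated end joining, were called in neither.

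In the Fanconi pathway the E2 enzyme was lower in both knockouts, 6 of the 9 genes of the core complex with its E2 were lower in DAXX_KO (26.6% of all genes), and 2 were lower and 1 higher in ATRX_KO, near the 21.0% and 20.8% of all genes. UBE2T was at 106, 107 and 106 CPM in WT and 49.0, 48.5 and 45.3 in DAXX_KO, and at 166, 175 and 161 in WT and 60.6, 61.6 and 74.4 in ATRX_KO. The groups did not overlap, and UBE2T was 2.24-fold lower in DAXX_KO (−1.16 ± 0.14, edgeR, adjusted p = 1.12e-06) and 2.55-fold lower in ATRX_KO (−1.35 ± 0.10, adjusted p = 1.26e-08). FANCL, the ligase of the core complex that works with UBE2T, was at 31.9, 31.9 and 34.2 in WT and 58.9, 70.4 and 59.2 in ATRX_KO, 1.93-fold higher (0.94 ± 0.14, adjusted p = 2.7e-05). In DAXX_KO FANCL did not pass the test (0.00 ± 0.12). The core genes FANCM, which anchors the complex to DNA (−0.77), FANCC (−0.72), FANCA (−0.56), FANCB (−0.40) and FANCG (−0.32) were lower in DAXX_KO, and with UBE2T they make 6 of 9. FANCG was at 56.7, 56.9 and 47.9 CPM in WT and 37.5, 44.8 and 47.0 in DAXX_KO, and at 64.8, 65.1 and 61.1 in WT and 42.5, 41.6 and 40.2 in ATRX_KO, where it was lower as well (−0.62 ± 0.07, adjusted p = 4.25e-06). FANCE and FANCF were called in neither knockout. FANCE did pass as lower in DAXX_KO with RLE size factors (−0.55), with only the compared groups fitted (−0.52) and in the model of all 24 libraries (−0.51). FANCC was at −0.42 in ATRX_KO, not called. It passed as lower there with RLE size factors (−0.44), at least 10 counts in every library (−0.41), only the compared groups (−0.43) and the model of all 24 libraries (−0.42).

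FANCD2, the clamp subunit that the core complex modifies, was at 103, 108 and 99.9 CPM in WT and 56.0, 57.2 and 58.3 in DAXX_KO, and at 119, 119 and 123 in WT and 91.1, 91.0 and 94.1 in ATRX_KO. It was lower in DAXX_KO (−0.86 ± 0.08, edgeR, adjusted p = 2.06e-08) and in ATRX_KO (−0.39 ± 0.08, adjusted p = 0.00116), and no knockout library reached its WT group. FANCI, its partner in the clamp, was higher in ATRX_KO (0.46 ± 0.09, adjusted p = 0.000319) and not called in DAXX_KO (0.13 ± 0.11).

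**Figure D2:**
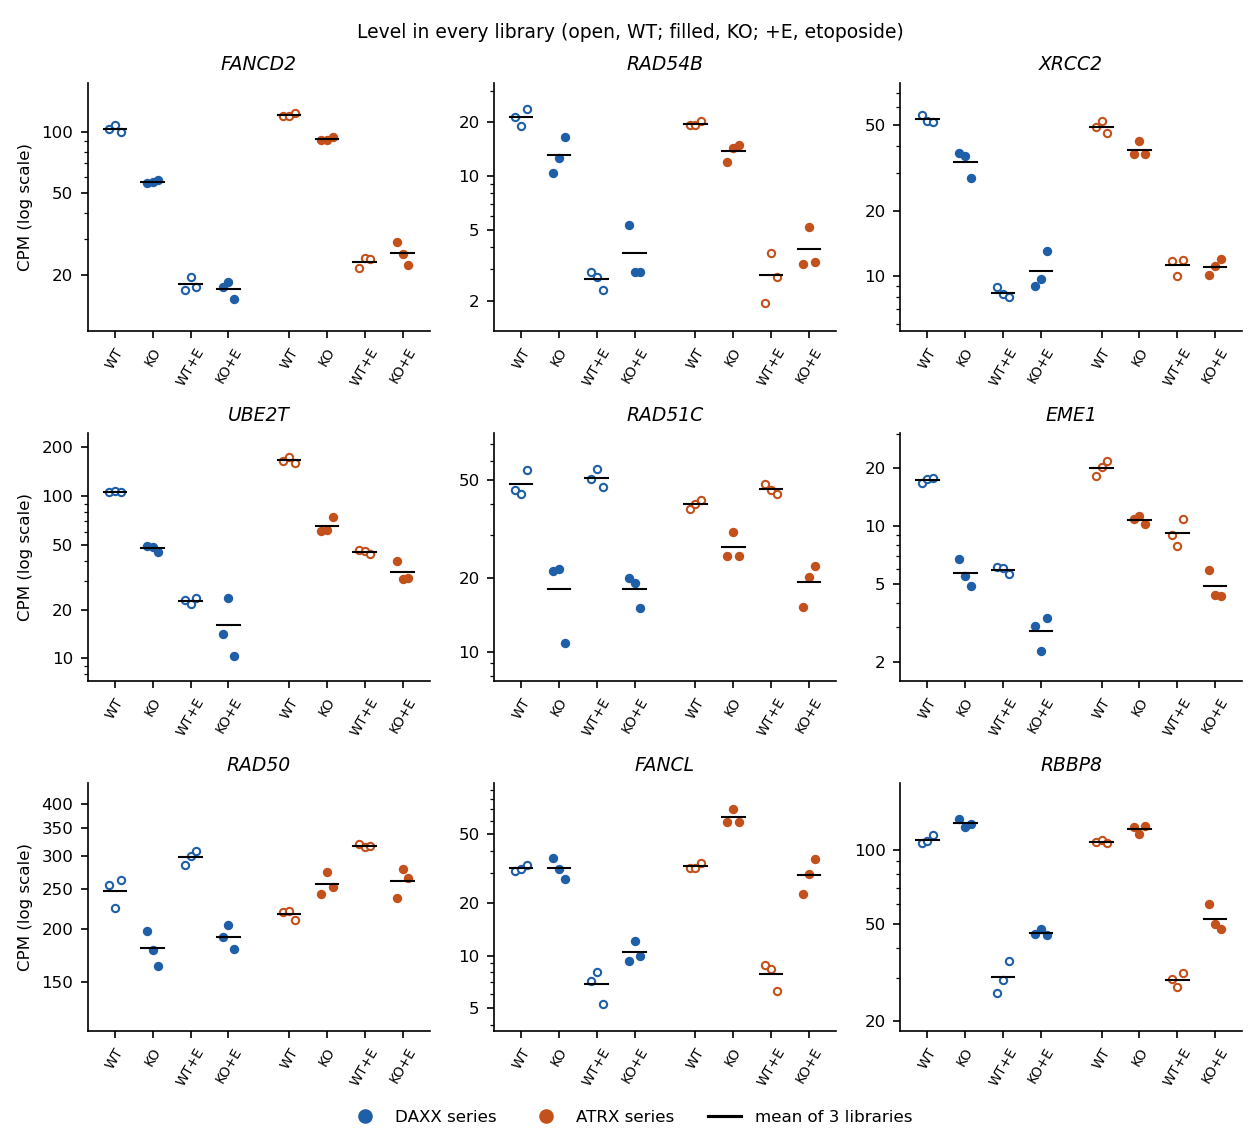
Level of 9 members in each of the 24 libraries (CPM, log axis), with the group mean as a bar and the 8 groups along the x axis. UBE2T and EME1 sit lower in both knockouts than in WT under control conditions, and FANCL is highest in ATRX_KO.

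BARD1, BRIP1, RAD51C, XRCC2, RAD54B, EME1, FANCG, UBE2T and FANCD2 were lower in both knockouts, 9 of 39 (23.1%, against 12.7% of the 15039 genes tested in both series). After centring on neighbouring genes BRIP1 lost its call in both knockouts, and RAD51C and RAD54B lost theirs in ATRX_KO. FAN1 was the 1 member higher in both (2.56%, against 10.7%), and 10 members were called in neither, as were 4881 of the 15039 genes. The series share no libraries, and across the 39 genes the 2 differences had a Spearman correlation of 0.648, against 0.397 over all genes, where genes are not independent replicates. Without 1 library at a time, the calls lost in DAXX_KO were BRCA2 (−0.27 to −0.26 without WT control replicate 3 or DAXX_KO control replicate 3), RBBP8 (0.20 to 0.22 without WT control replicate 1, WT control replicate 2 or DAXX_KO control replicate 1), RAD51AP1 (−0.33 to −0.26 without WT control replicate 1, WT control replicate 3 or DAXX_KO control replicate 3), MUS81 (−0.30 to −0.25 without WT control replicate 3, DAXX_KO control replicate 1 or DAXX_KO control replicate 3), FAN1 (0.38 to 0.48 without any 1 of 8 libraries), FANCB (−0.39 to −0.31 without any 1 of 4 libraries) and FANCG (−0.28 to −0.23 without WT control replicate 1, WT control replicate 2 or DAXX_KO control replicate 1). Those lost in ATRX_KO were BARD1 (−0.24 without WT control replicate 1), RAD50 (0.18 to 0.21 without WT control replicate 3 or ATRX_KO control replicate 2), EXO1 (−0.56 to −0.54 without WT control replicate 1, ATRX_KO control replicate 2 or ATRX_KO control replicate 3), XRCC3 (0.29 to 0.34 without any 1 of 4 libraries) and RAD54B (−0.53 to −0.41 without any 1 of 4 libraries). The small increases of RBBP8 and FAN1 in DAXX_KO were also lost under DESeq2, which called 0 members higher, and XRCC3 in ATRX_KO was lost there too (0.31, adjusted p = 0.0509). When libraries were scaled by their totals alone, the median of all genes moved by 0.18 in DAXX_KO, and the members' median moved with it from −0.34 to −0.16, since a scaling shifts all genes alike. BRCA2 (−0.12), PALB2 (−0.28), RAD51AP1 (−0.16), MUS81 (−0.12), FANCB (−0.22) and FANCG (−0.14) then lost their calls in DAXX_KO, and MRE11, RAD51D, XRCC3, RAD52, SLX4 and FANCI were called higher (0.31 to 0.64). In ATRX_KO BARD1 lost its call under that scaling (−0.20), and RBBP8 (0.23) and RAD51AP1 (0.35) were called higher.

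The second comparison asked what etoposide did to these genes in WT cells. Etoposide lowered most of them, 33 of 39 in the DAXX series (30.6% of all genes tested) and 32 of 39 in the ATRX series (29.8%). Their median log2 differences were −1.5 and −1.19, against 0.02 over all genes in the DAXX series. The same 32 genes fell in both (82.1%, against 26.8% of all genes). RAD50, RAD52, FAN1 and, in the DAXX series, XRCC3 rose, which is 4 and 3 of 39 against a background of 29.6% and 31.7% higher, and of 60.2% and 61.5% called in either direction. RAD51C (0.09 and 0.21) and SLX4 (0.26 and −0.03) were not called in either series.

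RAD54L showed the largest fall in both series. It was at 7.72, 11.4 and 8.76 CPM in control and 0.626, 0.119 and 0.135 with etoposide in the DAXX series, the latter from 5, 1 and 1 counts, so its size there rests on few counts. In the ATRX series it was at 9.63, 8.73 and 8.12 and 0.831, 1.43 and 1.00. The differences were −4.91 ± 0.42 (edgeR, adjusted p = 5.09e-09) and −3.01 ± 0.26 (adjusted p = 2.96e-08), and no etoposide library came near a control library. RAD54B, its relative, went from 21.4, 19.1 and 23.8 CPM to 2.88, 2.73 and 2.29 in the DAXX series and from 19.3, 19.2 and 20.3 to 1.94, 3.72 and 2.71 in the ATRX series, differences of −3.01 and −2.81. XRCC2 fell by 6.33-fold and 4.37-fold, and RAD51AP1 by 7.02-fold and 3.91-fold.

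The BRCA group fell as a whole in both series, all 5 of 5, where 26.8% of all genes fell in both. BARD1 went from 80.2, 74.3 and 78.6 CPM to 14.3, 15.1 and 14.0 in the DAXX series, a difference of −2.42 ± 0.09 (edgeR, adjusted p = 1.26e-14), and −2.19 in the ATRX series. BRCA1 differed by −1.05 ± 0.07 and −0.84 ± 0.08, BRIP1 by −1.76 and −1.19, BRCA2 by −1.59 and −1.41, and PALB2 by −0.64 and −1.17. The control and etoposide libraries of BARD1 lie far apart. Among the resection genes DNA2 went from 10.8, 9.66 and 9.84 CPM to 1.88, 2.14 and 1.48 in the DAXX series and from 16.6, 14.8 and 12.7 to 2.77, 1.81 and 2.4 in the ATRX series. It fell most of this group (−2.44 and −2.65), followed by RBBP8 (−1.87 and −1.87), EXO1 (−1.42 and −1.06) and NBN (−0.87 and −0.65). MRE11 fell in the DAXX series (−0.39 ± 0.14, adjusted p = 0.0194) and was at 0.14 ± 0.11, not called, in the ATRX series.

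All 9 genes of the core complex with its E2 fell in both series, against 26.8% of all genes. FANCE, which joins the core complex to FANCD2, went from 8.51, 7.93 and 7.68 CPM to 1.25, 0.950 and 1.48 in the DAXX series and from 9.48, 7.46 and 9.14 to 1.01, 1.91 and 1.10 in the ATRX series. Its differences were −2.71 ± 0.27 (edgeR, adjusted p = 5.93e-08) and −2.69 ± 0.24 (adjusted p = 4.04e-08). UBE2T differed by −2.23 and −1.88, and FANCL by −2.21 and −2.06. The smallest falls of this group were those of FANCF (−0.51 ± 0.18, edgeR, adjusted p = 0.0232) in the DAXX series and FANCG (−0.62 ± 0.08, adjusted p = 1.97e-06) in the ATRX series. FANCD2 went from 104 ± 4.21 to 18 ± 1.41 CPM (SD, n = 3) in the DAXX series and from 120.3 ± 2.65 to 23.3 ± 1.38 in the ATRX series. POLQ differed by −2.34 and −2.07. RMI2, a cofactor of BLM, went from 16.8, 15.5 and 18.2 to 2.13, 2.02 and 2.83 CPM in the DAXX series and from 21.2, 24.7 and 20.8 to 4.34, 3.81 and 3.01 in the ATRX series, differences of −2.86 and −2.57. BLM itself differed by −0.95 and −1.62, RMI1 by −1.89 and −2.24, WRN by −1.47 and −1.10, EME1 by −1.54 and −1.11, and MUS81 by −0.85 and −0.85. The remaining genes that fell in both series, RAD51D, FANCA, FANCB, FANCC, FANCM and FANCI, had differences of −1.89 to −0.60.

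Of the genes that rose, RAD50 went from 255, 225 and 263 CPM to 285, 300.4 and 309 in the DAXX series and from 220.3, 222 and 211 to 321, 316 and 316 in the ATRX series, differences of 0.27 ± 0.08 (edgeR, adjusted p = 0.00572) and 0.54 ± 0.07 (adjusted p = 6.21e-06). RAD52 went from 3.56, 3.22 and 3.36 to 6.13, 6.41 and 7.14 in the DAXX series and from 4.97, 3.14 and 4.32 to 5.54, 6.96 and 7.21 in the ATRX series, a rise of 0.95 and 0.66. FAN1 reached 15.8, 12.5 and 16.0 with etoposide in the DAXX series and 16.1, 16.5 and 13.9 in the ATRX series, a rise of 0.64 and 0.48 over the control values given with the nucleases. XRCC3 rose by 0.30 in the DAXX series and was at 0.25 ± 0.12 in the ATRX series, not called. Its call in the DAXX series was lost under DESeq2 (0.33, adjusted p = 0.0527), without a filter on low counts (0.29, adjusted p = 0.086) and in the model of all 24 libraries (0.29, adjusted p = 0.0598), and in the ATRX series it was called under library totals alone (0.29, adjusted p = 0.0436), with at least 10 counts in every library (0.32) and with only the compared groups fitted (0.25). Without 1 library at a time, the calls lost were MRE11 (−0.30 without WT control replicate 1 or WT etoposide replicate 2), XRCC3 (0.22 to 0.31 without any 1 of 6 libraries) and FANCF (−0.33 to −0.32 without WT control replicate 2 or WT etoposide replicate 1) in the DAXX series, and RAD52 (0.49 to 0.57 without WT control replicate 2 or WT etoposide replicate 3) in the ATRX series. Across the 39 genes the responses of the separate WT groups had a Spearman correlation of 0.936, against 0.884 over all genes.

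The window from 250 bases before to 50 bases after a gene's start was read for 33 of the 39 genes from a RefSeq promoter table (GRCh38.p14), since the members fell together. Where a gene has more than 1 start, a motif in any of its windows was counted. The letters TTCCCGCC, the core of the usual E2F motif, were in the windows of 12 of the 33 on either strand (36.4%), against 3.79% of 27305 genes with a window. They were in 10 of the 26 genes that fell in both WT groups and in 2 of the 7 others. CCAAT was in 14 (42.4%, against 39.7% of all), TTTGAA, a cell cycle homology element, in 4 (12.1%, against 18.2%), TTTCCCGC, which overlaps the first motif, in 3 (9.09%, against 1.98%), and TTTGGCGC and TTCGAA in 0 (0.795% and 1.82% of all). A match is a description and not a binding site, and the motifs were chosen with the counts known. The windows of 6 genes are shown because they belong to RAD54L, the member with the largest fall, to FANCD2, XRCC2 and RAD51AP1, whose response to etoposide differed by genotype in at least 1 series, to the E2 enzyme UBE2T, and to RAD52, which rose. RAD54L and RAD52 have 2 windows each, and the window that holds TTCCCGCC was picked for display. Both picked windows lie wholly inside the annotated gene (chr1:46712133-46744152 and chr12:1020902-1099219). The 6 windows are written from 5′ to 3′ on the strand of the gene, with TTCCCGCC, CCAAT and TTTGAA on either strand in capitals, and each matched build 37 once. RAD54L (chr1:46713110-46713409, + strand) has TTCCCGCC 49 bases before its start and 2 CCAAT motifs, RAD51AP1 (chr12:4647806-4648105, +) has it at −22 with 1 CCAAT, FANCD2 (chr3:10067871-10068170, +) at −3, XRCC2 (chr7:152373177-152373476, − strand) at 20, and RAD52 (chr12:1058811-1059110, −), which rose, at −235. UBE2T (chr1:202311015-202311314, −) has no TTCCCGCC, 2 CCAAT motifs and 1 TTTGAA.
RAD54L: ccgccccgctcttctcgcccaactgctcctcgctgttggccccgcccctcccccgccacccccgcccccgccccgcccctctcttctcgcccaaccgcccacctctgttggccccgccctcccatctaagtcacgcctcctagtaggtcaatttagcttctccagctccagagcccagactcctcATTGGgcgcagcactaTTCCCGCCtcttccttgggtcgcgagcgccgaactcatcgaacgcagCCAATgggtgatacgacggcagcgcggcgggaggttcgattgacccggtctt
FANCD2: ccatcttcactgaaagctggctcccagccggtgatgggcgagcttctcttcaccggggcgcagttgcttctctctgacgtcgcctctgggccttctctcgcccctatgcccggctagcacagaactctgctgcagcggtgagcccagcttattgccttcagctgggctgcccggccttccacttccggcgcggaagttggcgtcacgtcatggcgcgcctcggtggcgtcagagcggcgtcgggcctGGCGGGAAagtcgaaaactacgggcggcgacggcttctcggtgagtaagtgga
XRCC2: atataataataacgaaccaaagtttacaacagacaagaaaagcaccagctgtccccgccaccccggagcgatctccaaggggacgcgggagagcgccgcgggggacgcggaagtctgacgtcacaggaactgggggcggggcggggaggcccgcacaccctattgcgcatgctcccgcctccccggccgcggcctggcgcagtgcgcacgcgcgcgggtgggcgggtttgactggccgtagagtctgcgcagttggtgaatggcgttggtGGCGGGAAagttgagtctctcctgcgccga
RAD51AP1: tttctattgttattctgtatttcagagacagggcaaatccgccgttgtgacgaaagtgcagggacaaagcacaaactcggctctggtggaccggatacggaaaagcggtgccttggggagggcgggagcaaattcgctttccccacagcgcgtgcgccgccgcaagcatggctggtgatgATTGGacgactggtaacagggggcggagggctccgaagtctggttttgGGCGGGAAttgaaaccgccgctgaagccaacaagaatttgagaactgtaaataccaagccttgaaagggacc
UBE2T: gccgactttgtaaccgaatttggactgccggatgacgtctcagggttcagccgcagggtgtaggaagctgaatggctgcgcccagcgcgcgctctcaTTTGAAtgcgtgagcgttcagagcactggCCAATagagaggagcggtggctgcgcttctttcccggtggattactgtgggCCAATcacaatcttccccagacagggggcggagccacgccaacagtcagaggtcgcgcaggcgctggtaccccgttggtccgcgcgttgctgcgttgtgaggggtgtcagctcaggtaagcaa
RAD52: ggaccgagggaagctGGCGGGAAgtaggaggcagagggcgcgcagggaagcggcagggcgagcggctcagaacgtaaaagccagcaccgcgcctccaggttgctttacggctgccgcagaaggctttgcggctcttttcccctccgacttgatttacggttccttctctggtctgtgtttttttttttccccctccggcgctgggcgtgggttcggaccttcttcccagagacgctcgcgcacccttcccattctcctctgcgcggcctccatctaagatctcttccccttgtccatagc

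In the knockouts etoposide also lowered 33 of 39 members, both in DAXX_KO (27.8% of all genes fell and 26.8% rose, 54.5% in all) and in ATRX_KO (25.2% fell and 24.3% rose, 49.5% in all), with medians of −1.13 and −1.14. In DAXX_KO 0 members rose by edgeR or by DESeq2, and with each tool 33 members, as many as fell, had an unadjusted p under 0.05. FAN1 alone was called higher in ATRX_KO (0.34 ± 0.13, edgeR, adjusted p = 0.0422), a call lost without any 1 of 7 libraries (0.26 to 0.33). It was also lost without a filter on low counts (0.30), with a replicate block (0.33), with only the compared groups fitted and in the model of all 24 libraries (0.35 in each). RAD52, not called in ATRX_KO here, was called higher there with RLE size factors (0.52) and library totals alone (0.58). It was also called with at least 10 counts in every library (0.56) and in the model of all 24 libraries (0.51). RAD50 was not called in DAXX_KO (0.10 ± 0.08) or ATRX_KO (0.02 ± 0.07). RAD51C, not called in either WT group, fell in ATRX_KO from 24.7, 30.8 and 24.6 CPM to 15.2, 20.3 and 22.3, a difference of −0.46 ± 0.13 (adjusted p = 0.00587). SLX4 fell in DAXX_KO (−0.75 ± 0.24, adjusted p = 0.0133), and this call was lost without DAXX_KO control replicate 1 or 2 (−0.68 to −0.62).

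The third comparison asked whether the response to etoposide differed between knockout and WT, tested as the interaction of genotype and treatment. All comparisons within a series use the same 12 libraries, so their values are not independent of each other. In the DAXX series 5 of 39 genes had an interaction above 0 and 0 below, where 8.38% of all genes were above and 5.79% below (14.2% in all). An unadjusted p under 0.05 was reached by 11 members, and DESeq2 also called 0 below. In the 5 genes the fall with etoposide was smaller in DAXX_KO than in WT. RAD54B was at 2.88, 2.73 and 2.29 CPM in WT with etoposide and 5.35, 2.89 and 2.90 in DAXX_KO with etoposide, beside the control values given with the strand exchange genes. Its level was lower in DAXX_KO than in WT without the drug and was not called with it (0.47 ± 0.29), and the interaction was 1.17 ± 0.34 (edgeR, adjusted p = 0.025). XRCC2 gave 0.99 ± 0.20 (adjusted p = 0.00196), FANCD2 0.78 ± 0.13 (adjusted p = 0.000367), BRCA2 0.53 ± 0.16 (adjusted p = 0.0318) and RBBP8 0.38 ± 0.12 (adjusted p = 0.049). XRCC2 was at 8.89, 8.19 and 7.95 CPM in WT and 8.99, 9.61 and 13.1 in DAXX_KO with etoposide, and BRCA2 at 14.1, 14.2 and 15.4 and 19.3, 18.1 and 13.7. The count was 6 under DESeq2, which added RAD51AP1, and it was 2 without WT control replicate 3 and 7 without DAXX_KO etoposide replicate 3. The calls lost without 1 library were BRCA2 (0.44 to 0.55 without any 1 of 8 libraries), RBBP8 (0.29 to 0.41 without any 1 of 10 libraries) and RAD54B (0.84 to 1.2 without any 1 of 6 libraries). Under library totals alone 3 were above 0 and 1 below, with BRCA2 (0.42) and RBBP8 (0.27) lost and SLX4 called below 0 (−1.12).

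FANCD2 and RBBP8, at higher levels, also fell less in DAXX_KO, but stood differently to WT. FANCD2 was lower in DAXX_KO control (−0.86) and not called with etoposide (−0.07), while RBBP8 was higher in both (0.23 and 0.61). FANCD2 was at 16.9, 19.6 and 17.5 CPM in WT and 17.5, 18.5 and 15.3 in DAXX_KO with etoposide, groups that overlapped, although the control groups did not. RBBP8 was at 26.0, 29.3 and 35.3 in WT and 45.3, 47.7 and 44.9 in DAXX_KO with etoposide, groups that did not overlap.

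In the ATRX series 7 genes had an interaction above 0 and 3 below, where 8.36% of all genes were above and 7.64% below (16.0% in all). FANCL went from 31.9, 31.9 and 34.2 CPM in control to 8.77, 8.39 and 6.21 with etoposide in WT, and from 58.9, 70.4 and 59.2 to 22.7, 29.3 and 35.9 in ATRX_KO. With etoposide ATRX_KO kept a level 3.76-fold above WT, and the interaction was 0.97 ± 0.21 (edgeR, adjusted p = 0.00567). UBE2T, its partner enzyme, went from 166, 175 and 161 to 46.2, 46.0 and 44 in WT and from 60.6, 61.6 and 74.4 to 40.1, 30.8 and 31.4 in ATRX_KO, an interaction of 0.93 ± 0.14 (adjusted p = 0.000435). RAD54B was at 1.94, 3.72 and 2.71 in WT and 3.20, 5.19 and 3.31 in ATRX_KO with etoposide, an interaction of 1.01 ± 0.30 (adjusted p = 0.0302). RAD51AP1 (0.84 ± 0.18, adjusted p = 0.00415), RBBP8 (0.65 ± 0.13, adjusted p = 0.0024), RMI1 (0.62 ± 0.18, adjusted p = 0.0309) and FANCD2 (0.52 ± 0.13, adjusted p = 0.0105) also fell less in ATRX_KO. The 3 below 0 were RAD51C (−0.67 ± 0.17, adjusted p = 0.0152), which was called lower with etoposide in ATRX_KO and not in WT, RAD50 (−0.52 ± 0.10, adjusted p = 0.00281), which was called higher in WT and not in ATRX_KO, and FANCG (−0.49 ± 0.11, adjusted p = 0.00599), which fell further in ATRX_KO. The calls lost without 1 library were RAD54B (0.74 to 1.02 without any 1 of 7 libraries) and RMI1 (0.53 to 0.62 without any 1 of 6 libraries). RBBP8, RAD54B and FANCD2 had an interaction above 0 in both series, 3 of 39 (7.69%, against 3.13% of all genes). With the replicate number fitted as a block, RBBP8 in the DAXX series did not pass (0.38).

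**Figure D3:**
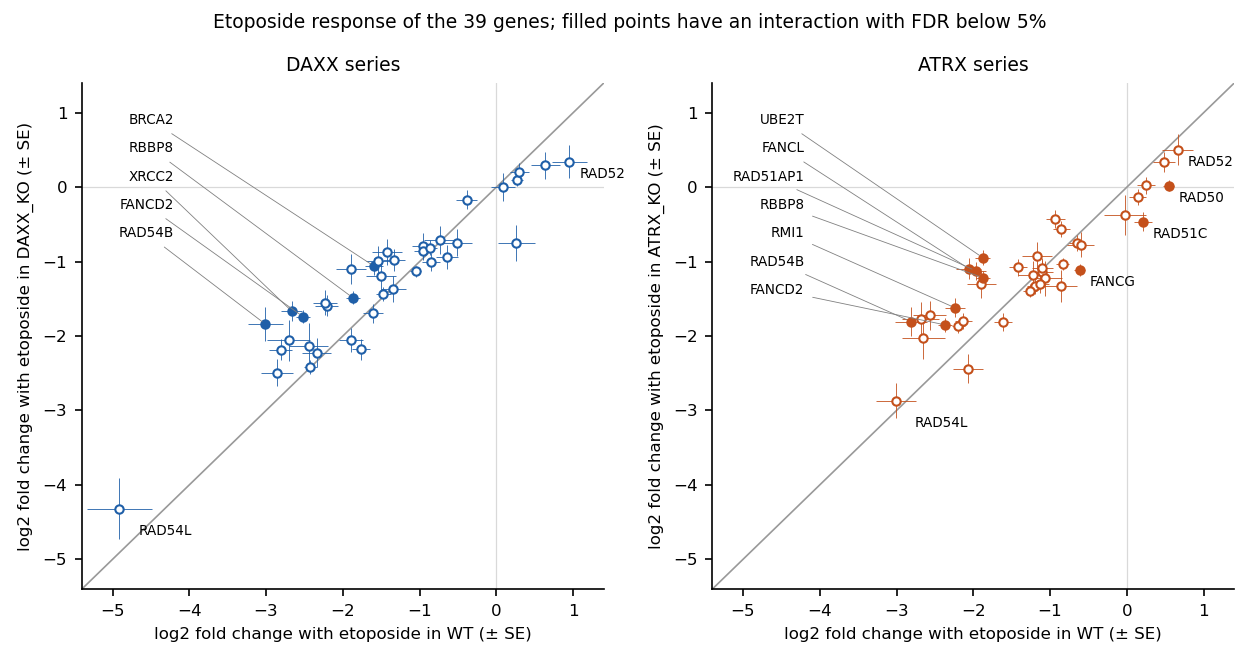
Log2 change with etoposide in WT (x axis) and in the knockout (y axis, with 1 SE on each axis) for each member, DAXX series on the left and ATRX series on the right, with the line of equal change and filled points for an interaction at an FDR below 5% (edgeR). Nearly all points lie in the lower left, and RAD54B, XRCC2 and FANCD2 on the left and FANCL and UBE2T on the right lie above the line.

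Set against WT with the same treatment, 11 members were lower and 4 higher in etoposide-treated DAXX_KO (25.2% and 27.9% of all genes, 53.0% in all), with a median of −0.12. RAD51C was at 50.4, 55.4 and 46.7 CPM in WT and 19.9, 19.1 and 15.1 in DAXX_KO, a difference of −1.5 ± 0.17 (edgeR, adjusted p = 4.66e-07) without overlap. BRIP1 (−1.13), EME1 (−1.05), DNA2 (−0.98), PALB2 (−0.76), BLM (−0.72), BRCA1 (−0.68), BARD1 (−0.63), RAD50 (−0.63), UBE2T (−0.48) and MUS81 (−0.47) were also lower. EXO1 (0.68 ± 0.20, adjusted p = 0.00888), FANCL (0.62 ± 0.17, adjusted p = 0.0049), RBBP8 (0.61 ± 0.10, adjusted p = 2.21e-05) and MRE11 (0.38 ± 0.14, adjusted p = 0.0239) were higher. The calls lost without 1 library were MRE11 (0.27 to 0.29 without WT etoposide replicate 2 or DAXX_KO etoposide replicate 1), DNA2 (−0.96 to −0.70 without WT etoposide replicate 1, WT etoposide replicate 2 or DAXX_KO etoposide replicate 1) and UBE2T (−0.47 to −0.24 without any 1 of 4 libraries). Under DESeq2 UBE2T (−0.52, adjusted p = 0.0559) and MRE11 (0.36, adjusted p = 0.0524) did not pass, nor did UBE2T under library totals alone (−0.41).

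In ATRX_KO with etoposide 9 members were higher and 8 lower, close to the 23.0% and 22.9% of all genes (45.9% in all), with a median of 0.05. FANCL was at 8.77, 8.39 and 6.21 CPM in WT and 22.7, 29.3 and 35.9 in ATRX_KO, a difference of 1.91 ± 0.16 (edgeR, adjusted p = 7.09e-08), and RAD51AP1 was at 8.03, 8.30 and 12.5 and 19.6, 21.9 and 21.4, a difference of 1.13 ± 0.14 (adjusted p = 3.42e-06). In neither gene did the groups overlap. RMI2 (0.90), RBBP8 (0.83), FANCF (0.48), BRCA2 (0.43), MRE11 (0.35), FAN1 (0.35) and FANCI (0.34) were higher too. RAD51C (−1.25 ± 0.12, adjusted p = 4.26e-07) and FANCG (−1.11 ± 0.08, adjusted p = 1.09e-08) were the lowest, and EME1 (−0.92), EXO1 (−0.79), BRIP1 (−0.60), UBE2T (−0.42), BLM (−0.40) and RAD50 (−0.28) were lower as well. The calls lost without 1 library were MRE11 (0.31 to 0.33 without WT etoposide replicate 1 or ATRX_KO etoposide replicate 2), EXO1 (−0.67 to −0.54 without WT etoposide replicate 2 or ATRX_KO etoposide replicate 3), BLM (−0.37 to −0.33 without any 1 of 4 libraries), FAN1 (0.27 to 0.31 without WT etoposide replicate 3, ATRX_KO etoposide replicate 2 or ATRX_KO etoposide replicate 3) and FANCI (0.23 without ATRX_KO etoposide replicate 2). Without a filter on low counts FAN1 (0.35) and BLM (−0.40) did not pass, nor did BLM under library totals alone (−0.30). BRIP1, RAD50, RAD51C, BLM, EME1 and UBE2T were lower in both knockouts with etoposide, 6 of 39 (15.4%, against 12.8% of all genes), RBBP8, MRE11 and FANCL were higher in both (7.69%, against 12.4%), and EXO1 was called in opposite directions. After centring on neighbouring genes UBE2T turned to 0.16 in DAXX_KO (edgeR, adjusted p = 0.495) and 0.04 in ATRX_KO (adjusted p = 0.802). BRIP1 in ATRX_KO (−0.22, adjusted p = 0.138) and EME1 in DAXX_KO (−0.44, adjusted p = 0.082) no longer passed.

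The fourth comparison tested whether the effects of DAXX_KO and ATRX_KO, each against its own WT, differed. In control conditions 14 of 39 members were lower in DAXX_KO relative to ATRX_KO and 1 was higher (17.2% and 17.0% of all genes, 34.1% in all). FANCL (−0.94 ± 0.19, edgeR, adjusted p = 0.000397), RAD51C (−0.83 ± 0.23, adjusted p = 0.00608) and BRCA1 (−0.71 ± 0.10, adjusted p = 5.4e-06) were among the 14, and EXO1 was the higher one (0.76 ± 0.26, adjusted p = 0.0281). BRCA1 was at 109 ± 3.36 CPM in WT and 118 ± 7.28 in ATRX_KO (SD, n = 3). Of the BRCA group, BRCA1, BARD1, BRCA2 and PALB2 differed between the knockouts and BRIP1 did not pass the test (−0.24 ± 0.14). The difference for UBE2T was 0.19 ± 0.19 and also did not pass. Without 1 library at a time, the calls lost were BRCA2 (−0.41 to −0.35 without any 1 of 9 libraries), PALB2 (−0.65 to −0.55 without any 1 of 7 libraries), MRE11 (−0.47 to −0.36 without any 1 of 6 libraries), EXO1 (0.66 to 0.75 without any 1 of 7 libraries) and FANCA (−0.49 to −0.38 without any 1 of 9 libraries). Under library totals alone 8 were lower and 3 higher, with BARD1 (−0.25), BRCA2 (−0.27), PALB2 (−0.54), MRE11 (−0.33), FANCA (−0.34) and FANCM (−0.57) lost and RMI1 (0.55) and FANCG (0.42) called higher. Without a filter on low counts EXO1 (0.72), MRE11 (−0.48) and FANCM (−0.73) did not pass.

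With etoposide 9 members were lower in DAXX_KO relative to ATRX_KO and 2 higher (16.8% and 17.7%, 34.5% in all). FANCL (−1.31 ± 0.26, edgeR, adjusted p = 0.000239) and PALB2 (−1.23 ± 0.27, adjusted p = 0.000924) were the lowest, and EXO1 (1.45 ± 0.32, adjusted p = 0.000737) and FANCG (0.87 ± 0.14, adjusted p = 2.71e-05) were the higher ones. EXO1 was at 3.5, 3.44 and 3.91 CPM in WT and 4.74, 6.41 and 6.14 in DAXX_KO, and at 4.99, 5.82 and 4.61 in WT and 4.09, 3.03 and 1.88 in ATRX_KO. The calls lost without 1 library were BRIP1 (−0.48 without DAXX-series WT etoposide replicate 1 or ATRX_KO etoposide replicate 2), RAD51AP1 (−0.61 without DAXX-series WT etoposide replicate 2) and FANCF (−0.59 to −0.46 without any 1 of 7 libraries). BRIP1 (−0.54) and FANCF (−0.61) did not pass under DESeq2. The interactions of the 2 series differed by the edgeR test in 0 of 39 members (3.00% of all genes, 1.92% above 0 and 1.08% below), 7 had an unadjusted p under 0.05, and DESeq2 called 0 with 5 at an unadjusted p under 0.05.

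The WT groups of the series, which are both labelled WT, differed in 4 members in control (2 higher and 2 lower in the DAXX series, 6.01% and 7.22% of all genes, 13.2% in all) and in 9 with etoposide (1 higher and 8 lower, 7.42% and 8.44%, 15.9% in all). UBE2T was lower in the WT of the DAXX series both in control (−0.61 ± 0.13, edgeR, adjusted p = 0.00278) and with etoposide (−0.95 ± 0.16, adjusted p = 0.000136). MRE11 (0.38) and RAD51AP1 (0.37) were higher and FANCI (−0.38) lower in control. With etoposide BLM was higher (0.73), and RAD54L (−1.8), FANCI (−0.72), BRIP1 (−0.69), EME1 (−0.59), FANCG (−0.54), FANCD2 (−0.32) and BARD1 (−0.29) were lower beside UBE2T. The calls lost without 1 library in control were MRE11 (0.29 to 0.39 without any 1 of 4 libraries), RAD51AP1 (0.33 to 0.40 without any 1 of 5 libraries) and FANCI (−0.37 to −0.35 without DAXX-series WT control replicate 1, DAXX-series WT control replicate 2 or ATRX-series WT control replicate 1). With etoposide they were BARD1 (−0.29 to −0.21 without any 1 of 17 libraries), RAD54L (−1.52 to −1.38 without DAXX-series WT etoposide replicate 2, DAXX-series WT etoposide replicate 3 or ATRX-series WT etoposide replicate 2), EME1 (−0.57 to −0.42 without DAXX-series WT etoposide replicate 2, DAXX-series WT etoposide replicate 3 or ATRX-series WT etoposide replicate 3) and FANCD2 (−0.29 to −0.25 without any 1 of 8 libraries). MRE11 (0.33) and RAD51AP1 (0.32) in control did not pass under library totals alone, and BARD1 with etoposide (−0.27) did not under DESeq2.

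Other lists of genes, written from general knowledge, place these changes beside the cell cycle and other repair genes. In control conditions 18 of 24 tested genes of G1/S transcription were lower in DAXX_KO and 2 higher (median −0.50), and 18 of 24 genes of G2/M were lower (median −0.44). In ATRX_KO 13 G1/S genes were lower and 1 higher (median −0.28), and 20 G2/M genes were lower (median −0.39). CDC6, which licenses replication origins, was at −1.38 in DAXX_KO (edgeR, adjusted p = 1.29e-10), RRM2, a subunit of ribonucleotide reductase, at −1.26 (adjusted p = 2.76e-12), and CDC20, an activator of the anaphase-promoting complex, at −1.10 (adjusted p = 4.47e-10). Of all genes, 26.6% were lower and 26.7% higher in DAXX_KO, and 21.0% and 20.8% in ATRX_KO. With etoposide in WT 21 G1/S genes fell and 1 rose in the DAXX series (median −1.64), and all 24 G2/M genes fell (median −3.74). In the ATRX series 19 G1/S genes fell (median −1.43), and all 24 G2/M genes fell (median −3.04). Of all genes, 30.6% fell and 29.6% rose in WT of the DAXX series, and 29.8% and 31.7% in that of the ATRX series. The part of cell cycle state in the values of the members was not tested.

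The 21 genes of end joining, the route that does not use a sister chromatid, had a median of −0.19 with etoposide in the DAXX-series WT, with 10 lower and 5 higher (30.6% and 29.6% of all genes), and of −0.45 in the ATRX-series WT, with 12 lower and 6 higher (29.8% and 31.7%). In control conditions 7 were lower and 4 higher in DAXX_KO (median −0.21, beside 26.6% and 26.7% of all genes), and 0 were lower and 6 higher in ATRX_KO (median −0.06, beside 21.0% and 20.8%). XRCC6 (−1.16, edgeR, adjusted p = 3.56e-11) and XRCC5 (−0.93, adjusted p = 3.45e-09), the Ku subunits, were lower in DAXX_KO, and APLF, a Ku-binding factor, was higher in DAXX_KO (2.52) and in ATRX_KO (2.75). Of 38 other recombination and Fanconi genes, 18 were lower and 6 higher in DAXX_KO (median −0.26), and 11 were lower and 3 higher in ATRX_KO (median −0.04). CENPX, a partner of FANCM, was lower in both (−1.09, adjusted p = 3.49e-11, and −1.30, adjusted p = 1.68e-09). With etoposide 19 of the 38 fell and 6 rose in WT of the DAXX series (30.6% and 29.6% of all genes), and 18 fell and 7 rose in WT of the ATRX series (29.8% and 31.7%). USP1, the enzyme that removes ubiquitin from FANCD2, was at −2.68 (adjusted p = 7.29e-14) and −2.91 (adjusted p = 3.35e-14). In the interaction, 13 of 24 G2/M genes were called above 0 and 0 below in the DAXX series (8.38% and 5.79% of all genes), and 4 above and 1 below in the ATRX series (8.36% and 7.64%).

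**Figure D4:**
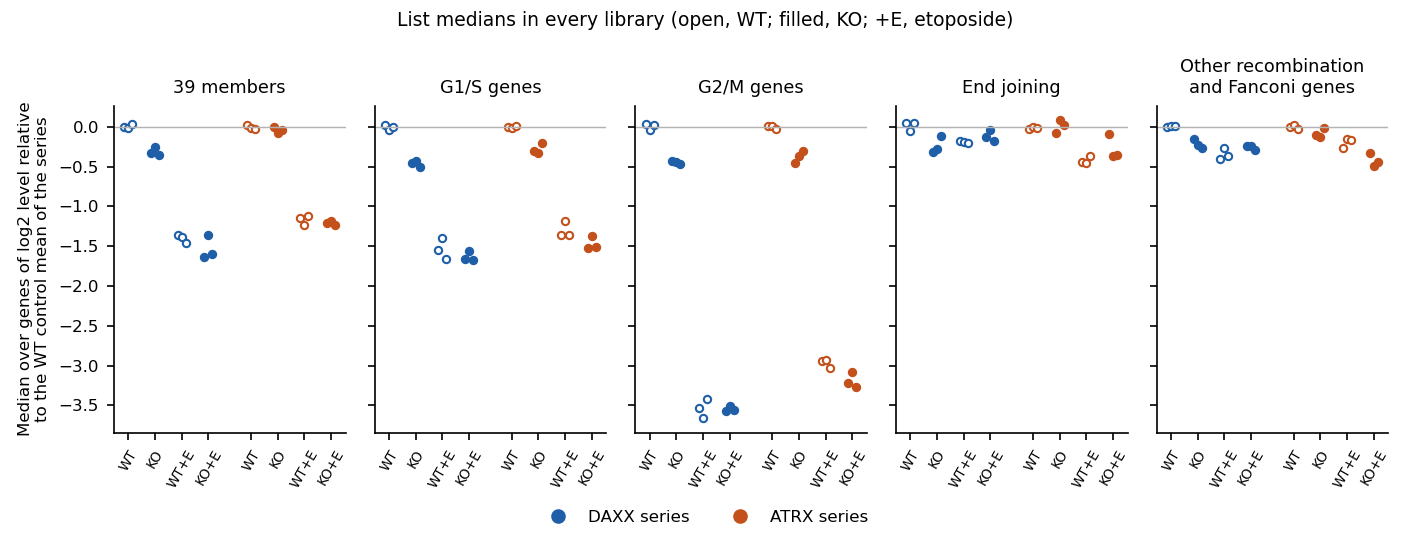
Median log2 level of each list in each library relative to the mean of its WT control group, for the 39 members and 4 other lists, with the series side by side. The members fall to −1.36 to −1.46 in the etoposide-treated WT libraries of the DAXX series, the G2/M genes fall further, to −3.42 to −3.66, and the end joining genes stay between −0.18 and −0.20 there.

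Genes that lie beside each other can differ together between clones. Each member was thus set beside the median of its neighbours, up to 30 tested genes on each side (35 to 60 in all). In control conditions the neighbours were lower in both knockouts around BRIP1 (ENSG00000136492, chr17:59756500-59940920, build 37, medians −0.73 in DAXX_KO and −0.44 in ATRX_KO), RAD51C (ENSG00000108384, chr17:56769934-56812972, −0.74 and −0.32) and EME1 (ENSG00000154920, chr17:48450581-48458844, −0.55 and −0.47), which all lie on chromosome 17. They were also lower around UBE2T (ENSG00000077152, chr1:202300672-202311112, −0.33 and −0.39). They were lower around WRN in ATRX_KO (−0.62). In DAXX_KO they were higher around XRCC2 (0.50), FANCB (0.44) and EXO1 (0.43). Over all genes, 9.58% had a neighbour median below −0.3 and 15.1% above 0.3 in DAXX_KO, and 9.12% and 2.55% in ATRX_KO. After the neighbour median was taken off, UBE2T remained lower in DAXX_KO (−0.84, edgeR, adjusted p = 6.5e-05) and in ATRX_KO (−0.96, adjusted p = 8.37e-07). EME1 also remained lower (−1.04, adjusted p = 2.77e-05, and −0.42, adjusted p = 0.0288), as did RAD51C in DAXX_KO (−0.68, adjusted p = 0.00278). RAD51C in ATRX_KO (−0.26, adjusted p = 0.103) and BRIP1 in DAXX_KO (0.02, adjusted p = 0.92) and ATRX_KO (−0.03, adjusted p = 0.849) no longer passed. The other calls lost in control were RBBP8 in DAXX_KO (0.09) and XRCC3 (0.20) and RAD54B (−0.41) in ATRX_KO. With etoposide the neighbours of UBE2T were at −0.64 in DAXX_KO and −0.45 in ATRX_KO, and its own difference turned sign in both. EXO1 (0.19), DNA2 (−0.74) and EME1 (−0.44) in DAXX_KO, and BRIP1 (−0.22), BRCA2 (0.31), FAN1 (0.09) and FANCI (0.24) in ATRX_KO also lost their calls with etoposide. Other members gained a call with centring. In control these were FANCE (−0.69) and POLQ (−0.44) in DAXX_KO and RAD51AP1 (0.37), BLM (−0.40), FANCC (−0.54) and FANCE (−0.51) in ATRX_KO. With etoposide they were SLX4 (−0.72), FANCB (−0.98), FANCC (−0.62) and FANCG (−0.50) in DAXX_KO and FANCB (−0.60), FANCD2 (0.28) and POLQ (−0.69) in ATRX_KO. WRN in ATRX_KO turned from −0.19 to 0.43 in control (edgeR, adjusted p = 0.0145) and from −0.17 to 0.42 with etoposide (adjusted p = 0.0266), so its direction depends on the centring. The members called numbered 23 before and 23 after centring in DAXX_KO control and 17 and 18 in ATRX_KO control. The copy number of these regions was not analysed here.

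**Figure D5:**
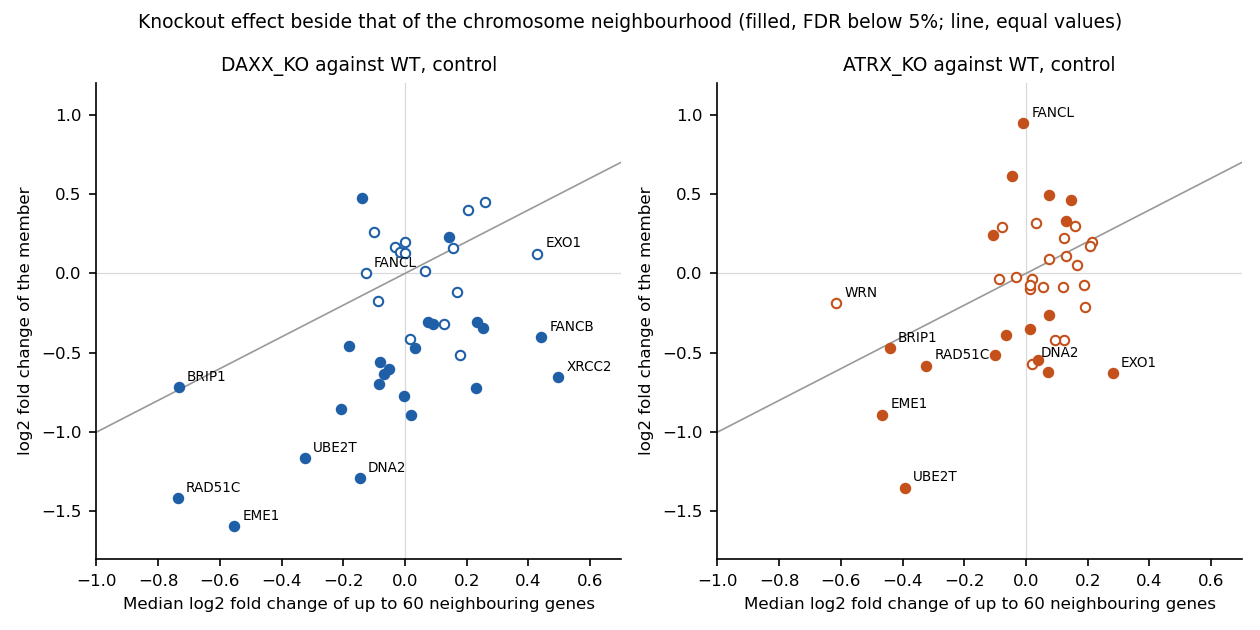
Log2 difference of each member between knockout and WT in control conditions (y axis) against the median log2 difference of up to 60 neighbouring genes (x axis), DAXX_KO on the left and ATRX_KO on the right. BRIP1 and RAD51C have the lowest neighbour medians in DAXX_KO, at −0.73 and −0.74, and UBE2T lies well below its neighbours in both panels.

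Reads of a 3′ library can come from a gene that ends on the other strand, and the strand used for counting is not given in the sources used here. Within their last 1000 bases EME1 overlaps LRRC59, RAD54L overlaps LRRC41, XRCC3 overlaps KLC1 and FANCL overlaps VRK2 on the opposite strand, and so do FAN1, FANCA, FANCC and FANCI with MTMR10, ZNF276, AOPEP and POLG. EME1 had 2417 counts over all libraries and LRRC59 had 121768. LRRC59 was also lower in the knockouts, under control conditions (−1.37 in DAXX_KO and −0.71 in ATRX_KO) and with etoposide (−1.56 and −1.13), while with etoposide in WT it rose (0.36 and 0.43) where EME1 fell. LRRC41 had 23556 counts beside 1244 of RAD54L. With etoposide in WT, where RAD54L fell, LRRC41 was at 0.04 and −0.25, not called, and with etoposide in DAXX_KO, where RAD54L also fell, it was lower (−0.43). It was higher in DAXX_KO control (0.35) and in ATRX_KO with etoposide (0.50), where RAD54L was not called. VRK2, with 3690 counts beside 6913 of FANCL, was at 0.02 in ATRX_KO control and 0.43 in ATRX_KO with etoposide, where FANCL was higher. In DAXX_KO with etoposide VRK2 was higher (0.93) as FANCL was, and with etoposide in WT it fell (−0.92 and −1.02) where FANCL fell. In DAXX_KO control VRK2 was higher (0.70) while FANCL was at 0.00. MTMR10, with 3060 counts beside 3579 of FAN1, was at 0.34 in DAXX_KO and 0.35 in ATRX_KO under control conditions, not called, where FAN1 was higher. With etoposide MTMR10 was higher in DAXX_KO (0.63) and ATRX_KO (0.75), and with etoposide in WT it fell (−0.51 and −0.79) where FAN1 rose. In DAXX_KO control, where FANCC and FANCA were lower, AOPEP was higher (0.50) and ZNF276 was at −0.25, not called. In ATRX_KO control AOPEP was lower (−0.51), where FANCC was at −0.42, not called. With etoposide in WT AOPEP fell (−0.54 and −0.45) where FANCC fell. FANCC also fell with etoposide in the knockouts, where AOPEP fell in DAXX_KO (−0.65) and was at −0.03, not called, in ATRX_KO. ZNF276 was at 0.27, not called, and 0.56 with etoposide in WT, where FANCA fell. In ATRX_KO control, where FANCI and XRCC3 were higher, POLG was at −0.05, not called, and KLC1 was lower (−0.22). With etoposide in WT, where FANCI fell, POLG fell in the DAXX series (−0.30) and was at −0.09, not called, in the ATRX series. KLC1 also fell with etoposide in WT (−0.67 and −0.94), where XRCC3 rose in the DAXX series. The part of the overlapping genes in these values was not tested. Pseudogenes that resemble BRCA1, RBBP8, MRE11, RAD51AP1, RAD52 and FANCD2 are annotated, so counts of these genes are uncertain where reads were shared.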

How the data were processed

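RNA-seq of 24 libraries was analysed. The authors made QuantSeq 3′ libraries, aligned single-end reads to hg19 by STAR and used RSEM to make estimated counts per gene. The submitters' processing notes name RSEM 1.2.3, and the study's methods name a different version. The deposited counts are whole numbers without normalization for 57736 genes, and GENCODE symbols placed on build 37 matched 55501 genes with 98.8% of the counts. Analysis used edgeR 4.0.16 (R 4.3.3), with libraries scaled by TMM (factors 0.939 to 1.10) and genes filtered by filterByExpr (minimum count 10, minimum total 15). One quasi-likelihood model of 4 groups was fitted per series, and one of 8 groups to all libraries for differences between the series. The Benjamini-Hochberg adjustment ran over all genes tested. Replicates differed by more than counting error (chi-square per degree of freedom 2.16 to 17.1 over 24 pairs), and the coefficient of biological variation was 0.0825 and 0.106 in the series. The fit was tested on simulated data.

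The members and gene lists were chosen with earlier results of these data known. Values in every library were given for a choice of members. It drew on those called the same way (8 lower, 4 higher at most) or in opposite ways in both knockouts. It also drew on the 6 largest interactions each way, and the 5 largest falls and rises with etoposide in both WT groups. BRCA1 was added, and some members that met these rules, such as BLM and MRE11 with etoposide, were not given by library. Other lists were named by at most 4 genes. Alternatives were DESeq2 1.42.0, RLE size factors, library totals alone, no filter and a floor of 10 counts per library. Further ones were a single model of all 24 libraries, only the compared groups, a replicate block and a fold of 1.5. The last were centring on up to 30 neighbouring genes on each side and leaving out each library. Promoter windows came from RefSeq, and plots were made in matplotlib 3.10.9 under Python 3.11.15. Other assays of the study were not used here.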

Additional observations from a re-analysis of the deposited data

Results flagged for a closer look

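The 41 values given here are differences between groups that passed a test of the difference itself, by edgeR at an FDR of 5% over all genes tested. In control conditions the effect of DAXX_KO against its WT differed from that of ATRX_KO against its WT in 15 members, with log2 differences of BRCA1 (−0.71), BARD1 (−0.37), BRCA2 (−0.39), PALB2 (−0.67), MRE11 (−0.45), RAD50 (−0.70), EXO1 (0.76), RAD51AP1 (−0.63), RAD51C (−0.83), BLM (−0.68), EME1 (−0.70), FANCA (−0.46), FANCL (−0.94), FANCM (−0.69) and FANCD2 (−0.47).

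With etoposide the same difference was called in 11 members, BRCA1 (−0.62), BARD1 (−0.72), BRIP1 (−0.55), PALB2 (−1.23), RAD50 (−0.37), EXO1 (1.45), RAD51AP1 (−0.87), MUS81 (−0.70), FANCF (−0.61), FANCG (0.87) and FANCL (−1.31). The largest in size, EXO1 and FANCL, have the same sign with and without the drug.

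The response to etoposide differed between DAXX_KO and WT in 5 members, BRCA2 (0.53), RBBP8 (0.38), XRCC2 (0.99), RAD54B (1.17) and FANCD2 (0.78). It differed between ATRX_KO and WT in 10 members, RBBP8 (0.65), RAD50 (−0.52), RAD51AP1 (0.84), RAD51C (−0.67), RAD54B (1.01), RMI1 (0.62), FANCG (−0.49), FANCL (0.97), UBE2T (0.93) and FANCD2 (0.52). In both series a value above 0 is a smaller fall or a larger rise with etoposide in the knockout. The series have their own WT libraries and the knockouts are single clones, so the targeted gene, the clone and the series cannot be told apart in these differences.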

How the results depend on the processing

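Of 13957 values of single members under the alternatives, 13463 stayed on the same side of the threshold, of which 309, called neither way, changed sign. A call was lost in 340 and gained in 149, and 5 reversed. The reversals came with centring on neighbouring genes, BRIP1 in DAXX_KO control (0.016), UBE2T in DAXX_KO with etoposide (0.16) and in ATRX_KO with etoposide (0.037), and WRN, not called before centring, in ATRX_KO control (0.43) and with etoposide (0.42). The number of members higher in DAXX_KO control was 0 under DESeq2, 0 under RLE size factors, 8 under library totals alone, 1 without a filter, 1 with a replicate block, 1 after centring and 0 at 1.5-fold. Requiring 1.5-fold gave 13 lower there, 2 higher with etoposide in WT of the DAXX series and 1 in that of the ATRX series, 0 higher with etoposide in ATRX_KO, 3 interactions above 0 in the DAXX series and 1 below 0 in the ATRX series, 2 higher and 4 lower in ATRX_KO control, 4 higher and 5 lower in ATRX_KO with etoposide, 9 lower for DAXX_KO minus ATRX_KO in control, and between the WT groups 0 higher and 1 lower in control and 5 lower with etoposide.

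Library totals alone moved the median of all genes by 0.18 in DAXX_KO control, −0.11 with etoposide in DAXX_KO, −0.11 in the DAXX interaction and 0.12 for DAXX_KO minus ATRX_KO in control, by construction of the scaling. The members' medians then were −0.16 in DAXX_KO control, −1.24 with etoposide in DAXX_KO, 0.0064 in the DAXX interaction, −0.013 in ATRX_KO control, 0.15 in ATRX_KO with etoposide, −1.07 with etoposide in ATRX_KO, −0.17 for DAXX_KO minus ATRX_KO in control, −0.035 for the difference of interactions and −0.30 between WT groups with etoposide. Their counts were 3 above and 1 below 0 in the DAXX interaction, 2 higher with etoposide in ATRX_KO, 3 higher and 8 lower for DAXX_KO minus ATRX_KO in control, and 0 higher between WT groups in control. Without a filter, 8 DAXX interactions were above 0, 0 members rose in ATRX_KO, 0 were higher for DAXX_KO minus ATRX_KO in control, 1 was higher between WT groups in control, and the median after etoposide in the ATRX-series WT was −1.23. With at least 10 counts in every library, which tests fewer genes, the medians with etoposide were −1.38 and −1.11 in WT of the DAXX and ATRX series, −1.04 in DAXX_KO and −1.07 in ATRX_KO, 1 DAXX interaction was below 0, 2 members rose in ATRX_KO, 3 were higher for DAXX_KO minus ATRX_KO in control and 4 between WT groups in control. Centring gave medians of −0.43 in DAXX_KO control and −0.0098 in ATRX_KO with etoposide. With only the compared groups, 5 members rose in WT of the ATRX series and 0 in ATRX_KO, and RLE gave 2 there. The cause of these shifts was not tested apart from the scaling and the number of genes.

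Without 1 library at a time, members higher in DAXX_KO control were 0 to 2, DAXX interactions above 0 were 2 to 7 and below 0 were 0 to 1, members that rose were 0 to 1 in DAXX_KO and 0 to 2 in ATRX_KO, those higher for DAXX_KO minus ATRX_KO in control were 0 to 2, and between WT groups 0 to 4 were higher and 1 to 2 lower in control and 4 to 8 lower with etoposide. The medians ranged from −0.21 to −0.093 in DAXX_KO with etoposide, −1.27 to −1.11 with etoposide in DAXX_KO, 0.026 to 0.18 in the DAXX interaction, −0.11 to −0.031 in ATRX_KO control, 0.020 to 0.14 in ATRX_KO with etoposide, −1.27 to −1.15 after etoposide in the ATRX-series WT, −1.28 to −1.11 with etoposide in ATRX_KO, −0.085 to 0.088 in the ATRX interaction, −0.31 to −0.16 for DAXX_KO minus ATRX_KO with etoposide, −0.0091 to 0.11 for the difference of interactions, and −0.22 to −0.14 between WT groups with etoposide. With the group mean of log CPM taken off each gene, libraries of different groups with the same replicate number correlated between −0.216 and 0.049 in 36 pairs. The 72 other pairs correlated between −0.223 and 0.227, so the numbers were not read as pairs. The replicate block left 4 interactions above 0 in the DAXX series, without RBBP8, 0 members that rose in ATRX_KO, 8 higher in ATRX_KO with etoposide and 13 lower for DAXX_KO minus ATRX_KO in control. Depth limits RAD54L most, with 1 to 5 counts a library in etoposide-treated WT of the DAXX series.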
